A study of Mus musculus with 40 samples.

Results

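The step from FrD to FrE was followed in wild-type (WT) bone marrow as 5 pairs of libraries, each pair an FrD and an FrE library from the same mouse. They were taken as the 5 WT columns with fraction letter E and the 5 with letter D, matched by the mouse number in the title, and make up 10 of the 40 libraries of the series. FrD and FrE are stages of the Hardy scheme for B cell development. FrD holds late pre-B cells, sorted here as B220+ CD43- IgM- IgD-, and FrE holds immature B cells, sorted as B220+ CD43- IgM+ IgD-. Every mouse was a chimera: marrow of WT donors had been injected into lethally irradiated CD45.1 hosts, and 8 weeks later donor-derived CD45.1- CD45.2+ cells were sorted, 100 cells to a library. Both groups are therefore WT cells that matured in an irradiated host, and they differ by the IgM gate. The sources used here give neither the age of the mice nor the FrC gate. The series also holds fractions FrB and FrC, and the same fractions from chimeras carrying a homozygous P198A change in the zinc transporter ZIP7, encoded by Slc39a7.

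In late pre-B cells the heavy chain is already made, the RAG1 and RAG2 proteins cut the light chain loci, and end-joining factors repair the cuts. Signals from the interleukin 7 receptor and the pre-B receptor keep large pre-B cells dividing, and the small cells that follow leave the cycle. Once a light chain pairs with the heavy chain, IgM reaches the surface and the cell becomes an immature B cell that can respond through the B cell receptor (BCR), is tested for self-reactivity, and begins to acquire the receptors of mature B cells.

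All values below are CPM, counts scaled to the endogenous total of each library, and lists of values run in the order of mice 1, 2, 3, 6 and 7. Totals ran from 6372181 to 24638528 counts in FrD and from 5734929 to 23299203 in FrE. Genes detected ran from 10329 to 11014 in FrD and from 10555 to 10992 in FrE, and were 127 ± 202 higher in FrE (mean and SD of 5 paired differences, exact two-sided permutation p = 0.25). The smallest p that 5 pairs can give is 0.0625. Relative to the ERCC spike-ins, endogenous counts were 0.38 ± 1.02 log2 units higher in FrE (exact permutation p = 0.562); a difference in RNA content was not detectable in these pairs. Without mouse 7 that difference was -0.02. Scaling by the spike-ins in place of the endogenous counts moved the median log2 change of all genes to 0.37, so changes are given relative to the bulk of genes.

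The B-lineage gene Cd79b, a signalling chain of the BCR, was present in all 10 libraries and ran from 2014.4 to 6935 CPM in FrD and from 4632.8 to 10961.3 in FrE. Immunoglobulin constant region genes, among them Ighm, the gene of the IgM gate, are not analysed here. Ptprc, which encodes the B220 antigen, did not pass the paired test described below (log2 change 0.94 ± 0.42 SE). Its FrE values, 570.1 to 1258.8 CPM, all lay above its FrD values, 237.6 to 562.9. Spn, which encodes CD43, measured 5.8 to 101.2 CPM in FrD and 1.1 to 27.9 in FrE and did not pass either. In the wider fit on all 20 WT libraries, Spn was called lower (log2 change -2.89 ± 0.76 SE, edgeR adjusted p = 0.0457) and Ptprc was not called. Slc39a7 measured 48.3, 25.6, 203.7, 28.8 and 28.3 CPM in FrD and 2.1, 38, 31.8, 144.5 and 343.2 in FrE, so the groups overlapped throughout.

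2 of the 10 libraries stood apart, FrD of mouse 3 and FrE of mouse 7. More than 15% of their detected genes had only 1 to 9 counts, 26.7% and 28.1% against 6.83% to 14.7% in the other 8; they are called low-complexity libraries below. Markers of other cell types were uneven between libraries, as the plot of marker sums shows. Granulocyte and monocyte markers summed to 81197.3 CPM in FrD of mouse 3 against 62.9 to 8551.4 in the other FrD and 43.1 to 6354.3 in the FrE libraries. Erythroid markers reached 32946 CPM in FrD of mouse 3, 20707 in FrE of mouse 7 and 10410.5 in FrD of mouse 2, against 55 to 673.3 in the other 7. Plasma cell markers summed to 937.2 to 1660.3 CPM in FrD and to 575.4, 22531.9, 7523.9, 15666.3 and 2497.9 in FrE. Jchain, the joining chain of secreted IgM, carried most of that sum in FrE of mice 2, 3, 6 and 7, with 7.9, 20529, 5310.5, 14173.7 and 1845.2 CPM in FrE against 1.6 to 15.2 in FrD. None of the 8 T cell and 8 NK cell markers in the table passed the filter on low counts. The part of these other cells in the results below was not tested. The number that ends each title had different last digits in the FrD and FrE libraries. The titles do not say what it means, and it may be a library index. An effect tied to it cannot be told apart from the step.

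**Figure D1:**
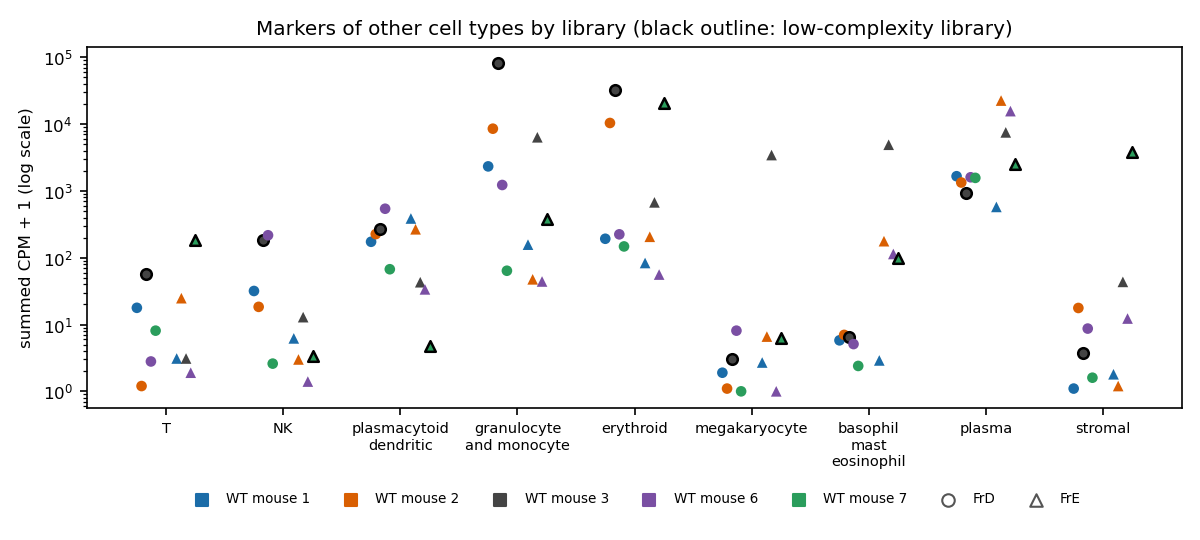
Summed CPM + 1 (log axis) of the markers of 9 other cell types in each of the 10 libraries. Circles are FrD, triangles are FrE, colours are mice, and a black outline marks the 2 libraries of low complexity. FrD of mouse 3 has the highest granulocyte and erythroid sums, and FrE of mouse 3 the highest megakaryocyte sum.

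Between FrD and FrE, 8 of 9707 genes tested passed the paired test, a background of 0.0824%, and all 8 rose. The test was edgeR's quasi-likelihood test with the mouse as a block and Benjamini-Hochberg adjustment, called at an adjusted p under 0.05, and 692 genes had an unadjusted p under 0.05. The genes were Ms4a1, Il4i1, Fcmr, Scd1, Ltb, Lta, Bank1 and Ppbp. 7 of them, all but Ppbp, had 5 FrE values that lay above the 5 FrD values. The count moved with each mouse left out: 6 genes were called without mouse 1, 3 without mouse 2, 1 without mouse 3, 1 without mouse 6 and 5 without mouse 7. Fcmr, Scd1, Ltb, Lta and Bank1 lost their call in each of these 5 fits, with adjusted p from 0.0573 to 0.316. Ms4a1 lost it only without mouse 6 (adjusted p from 0.0203 to 0.0762), Il4i1 without mouse 3 or 6 (0.0203 to 0.0991), and Ppbp, untested without mouse 3, in none of the other 4.

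A wider fit on all 20 WT libraries of the 4 fractions, again with the mouse as a block, called 359 of 11439 genes for the same contrast (3.14%), 176 higher (1.54%) and 183 lower (1.6%) in FrE, and called all 8 of the paired genes. These include Ppbp, high in 1 library, and both fits hold the same FrD and FrE libraries. The wider fit takes its estimate of spread from FrB and FrC as well. There, 6.62% to 8.36% and 7.2% to 8.54% of detected genes had 1 to 9 counts. Whether that pooled spread holds for FrD and FrE was not tested. Without the 2 low-complexity libraries and with no block, 277 of 9906 genes were called (2.8%), 124 higher (1.25%) and 153 lower (1.54%). Below, "rose" and "fell" without further remark refer to the paired test, and other calls are named by their fit. Replicates are separate mice. With the mouse as a block, the paired test measures how the step varied between animals, and spread from library preparation is part of this. Another description is the number of genes whose 5 FrE and 5 FrD values did not overlap, which was 192 with FrE higher (1.98%) and 196 with FrE lower (2.02%) of the 9707.

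Ms4a1, which encodes the surface antigen CD20, measured 586.8, 571.1, 114.1, 166.4 and 165.8 CPM in FrD. In FrE it measured 8641, 5096.8, 6427.3, 5696.4 and 2489.7 CPM. The lowest FrE library lay above the highest FrD library, and Ms4a1 rose by 4.33 ± 0.45 (log2, SE, adjusted p = 0.00878). The gene lies on chromosome 19, 11249675 to 11266241, minus strand (GRCm38, GENCODE M21). Fcmr, the receptor for the Fc part of IgM, measured 571.2, 291.8, 71.9, 211.4 and 204.5 CPM in FrD and 2838.7, 1856.4, 1727, 1735.8 and 1683.4 in FrE. Again the groups did not overlap, and Fcmr rose by 3.08 ± 0.42 (adjusted p = 0.0236).

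Il4i1, an L-amino acid oxidase induced by interleukin 4, was close to 0 in FrD, at 0.5, 0, 0.8, 0.9 and 0.8 CPM. In FrE it measured 50.8, 30.4, 209.9, 194.9 and 232.8 CPM, all above every FrD value. It rose by 7.82 ± 0.87 (adjusted p = 0.00878). Scd1, the stearoyl-CoA desaturase that makes monounsaturated fatty acids, measured 63.3, 79.5, 20.7, 35.2 and 49.4 CPM in FrD and 495.5, 427, 721.3, 595.4 and 717.7 in FrE. The groups did not overlap, and Scd1 rose by 3.65 ± 0.5 (adjusted p = 0.0236).

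Bank1, a B cell scaffold protein that links the BCR to calcium release, measured 65.6, 53.7, 12.2, 14.3 and 33.5 CPM in FrD and 431.2, 304.3, 289.9, 489.3 and 415.2 in FrE. Its groups were separate, and it rose by 3.66 ± 0.55 (adjusted p = 0.0375). Ppbp, a platelet chemokine, was called because of 1 library: it measured 2043.6 CPM in FrE of mouse 3 and 0 to 5.6 CPM in the other 9. Megakaryocyte markers summed to 3443.4 CPM in that same library and to at most 7.1 in the other 9. Ppbp was not called without the block, and it did not pass the filter once the low-complexity libraries or mouse 3 were left out.

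**Figure D2:**
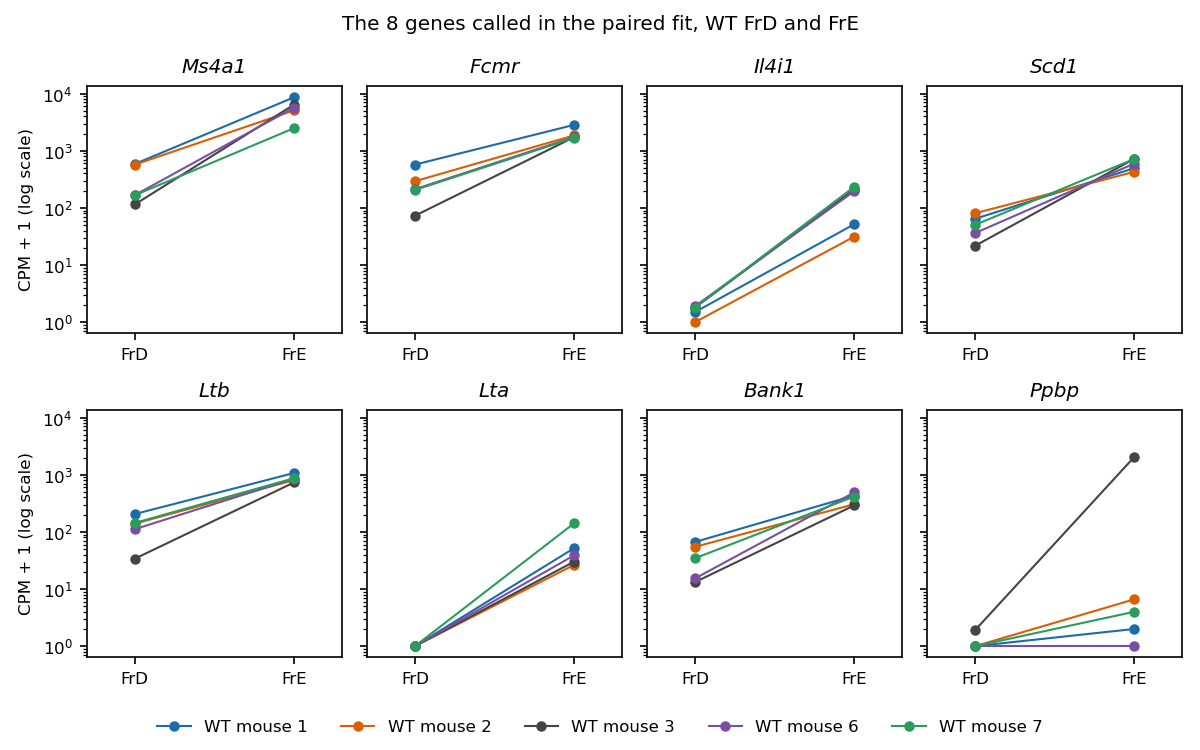
CPM + 1 (log axis) of the 8 genes called in the paired fit, in FrD and FrE of each of the 5 WT mice, with a line joining the 2 libraries of a mouse. In 7 panels every FrE point lies above every FrD point, while Ppbp is high only in FrE of mouse 3.

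Ltb and Lta, the neighbouring genes of lymphotoxin beta and alpha on chromosome 17, were both among the 8. These TNF family cytokines organise lymphoid tissue. Ltb (35194439 to 35196320, plus strand) measured 204.3, 138.2, 33, 110.6 and 142.8 CPM in FrD. In FrE it measured 1072.4, 806.5, 733.7, 854.4 and 869.9 CPM, with no overlap, and it rose by 2.95 ± 0.42 (adjusted p = 0.0339). Lta (35203165 to 35205351, minus strand) had 2 counts in all over the 5 FrD libraries and 3536 over the 5 FrE libraries. Its FrE values were 50.9, 25.5, 29.2, 37.9 and 140.7 CPM. The ratio of the summed, depth-scaled counts was 2110 with an exact 95% binomial interval of 583 to 17400, which covers counting error only, and Lta rose with an adjusted p of 0.0349.

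Lymphotoxin genes are known NF-kB targets, so the sequence before the Ltb start is shown with a match to a kappaB motif. It covers chr17:35194257-35194438, plus strand, 182 bases that end before the first base of Ltb in GENCODE M21 and overlap no annotated exon (RefSeq start, GRCm38.p6). The motif reads GGGA, then any base, then TTTCC. Capitals mark its match on the opposite strand, which begins 87 bases before the RefSeq start.
Ltb: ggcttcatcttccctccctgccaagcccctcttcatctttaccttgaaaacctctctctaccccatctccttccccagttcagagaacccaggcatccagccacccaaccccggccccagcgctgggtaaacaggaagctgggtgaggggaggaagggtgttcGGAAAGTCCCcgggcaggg
Searched on both strands, the motif occurred in the 250 bases before the start of 117 of 32851 RefSeq genes (0.356%). The neighbouring gene Lta, searched in the same way, held no match. For the called genes as a group no count is given, since only 6 of the 8 had a RefSeq promoter entry. A match is a description of the letters and not a binding site.

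Over all 9707 genes tested, 50.1% had a log2 change above 0, the share to set beside each list below. Of the 12 tested members of the BAFF receptor and TNF family list, 9 lay above 0 and 3 below, with a median log2 change of 0.96 against 0.004 for all genes. That median was 0.48 without mouse 6, 1.66 without mouse 2 and 1.61 without mouse 7. 2 rose, Ltb and Lta, and 3 had groups that did not overlap. Besides these it was Tnfrsf13c, the receptor for the survival factor BAFF. It measured 419.2, 350.1, 143.9, 316.1 and 234.1 CPM in FrD and 1329, 1023.1, 1403.9, 2135.5 and 618.5 in FrE. Every FrE value was above every FrD value, and Tnfrsf13c rose in the wider fit (2.08 ± 0.28, adjusted p = 0.000395) but missed the paired threshold (adjusted p = 0.109).

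Of 27 tested surface receptors of mature B cells, 23 lay above 0, and the median log2 change was 1.07. 2 rose in the paired test, Ms4a1 and Fcmr. The groups were separate for 8 with FrE higher and 1 with FrE lower, and the wider fit called 8 higher and 2 lower. Cd83, which stabilises MHC class II at the surface, measured 53.8, 7.4, 2.5, 25.1 and 35.5 CPM in FrD and 338, 284, 344.3, 408.8 and 330.4 in FrE. Its FrE values were close to each other and far from FrD, with a paired adjusted p of 0.0508 and a rise in the wider fit (4.12 ± 0.57, adjusted p = 0.000397).

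Cd52, a small glycoprotein of lymphocytes, rose in the wider fit by 2.25 ± 0.39 (adjusted p = 0.00303), from 551 to 1313.2 CPM in FrD to 2524.8 to 6263.5 in FrE. Cd40, the receptor for T cell help, measured 43 to 62.4 CPM in FrD and 173.4 to 396.3 in FrE, and rose there by 2.3 ± 0.45 (adjusted p = 0.00705). Cd22, an inhibitory co-receptor of the BCR, measured 58.2, 127, 96.7, 22.5 and 51.3 CPM in FrD and 250.4, 202.8, 487.2, 833.9 and 519.3 in FrE. The groups were separate, and Cd22 rose in the wider fit by 2.54 ± 0.48 (adjusted p = 0.00524). Cd93, the antigen detected by the AA4.1 antibody on immature cells, went the other way. It measured 511.2, 518.5, 392.5, 585.1 and 441 CPM in FrD and 157.1, 133.8, 60.3, 111.4 and 120 in FrE, and fell by 2.13 in the wider fit (SE 0.29, adjusted p = 0.000359).

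Genes of MHC class II presentation, by which B cells show antigen to T cells, lay above 0 for 17 of 17 tested, with a median log2 change of 1.3. None passed the paired test. The groups were separate for 4, and the same number was called by the wider fit, all higher. Cd74, the invariant chain that guides class II molecules, measured 2862.6, 4401.9, 271.3, 1438.2 and 1197.7 CPM in FrD. In FrE it measured 16480.3, 15862, 13885.1, 14311.4 and 4747.9 CPM. The low FrE value was that of mouse 7, a low-complexity library, and it still lay above every FrD value. Cd74 had a paired adjusted p of 0.0653 and rose in the wider fit by 2.87 ± 0.41 (adjusted p = 0.000603).

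Ifi30, a lysosomal thiol reductase that unfolds antigens, measured 260.3, 582.2, 10, 226.4 and 167.9 CPM in FrD and 3207.4, 2148.9, 2956.9, 2237.8 and 1639.3 in FrE. H2-DMb2, a chain of the peptide exchange factor H2-DM, measured 183.5, 129.8, 1.1, 31.1 and 45.2 CPM in FrD and 983, 895.6, 677.1, 919.3 and 364.4 in FrE. Both had separate groups and rose in the wider fit, Ifi30 by 3.56 ± 0.59 (adjusted p = 0.00194) and H2-DMb2 by 3.68 ± 0.67 (adjusted p = 0.00425). H2-Oa, a chain of the modulator H2-DO, measured 19 to 118 CPM in FrD and 196.9 to 266.3 in FrE, and rose there by 2.08 ± 0.5 (adjusted p = 0.0279). The classical chains overlapped between the groups: H2-Aa measured 302.4 to 2316.3 CPM in FrD and 859.6 to 3194.2 in FrE, and was called in neither fit (log2 change 1.3 and adjusted p of 0.0981 in the wider fit).

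Class II promoters carry conserved boxes, one of them an inverted CCAAT element, and the sequence before H2-Aa is shown with that box because the class II genes lay on one side of 0. It covers chr17:34287824-34288073, minus strand, 250 bases that overlap no annotated gene (RefSeq, GRCm38.p6). Capitals mark ATTGG, which begins 48 bases before the start.
H2-Aa: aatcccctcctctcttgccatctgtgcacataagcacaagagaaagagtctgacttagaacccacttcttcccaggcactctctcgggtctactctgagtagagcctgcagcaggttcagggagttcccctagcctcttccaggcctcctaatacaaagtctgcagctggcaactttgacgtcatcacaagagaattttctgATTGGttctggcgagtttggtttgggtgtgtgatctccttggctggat
On both strands, ATTGG occurred in the same window of 11120 of 32851 genes (33.8%), so the match is common. Only 12 of the 17 list members had a RefSeq promoter entry, too few for a count over the list.

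Genes of BCR signalling were above 0 for 24 of 31 tested, with a median of 0.81. Bank1 rose, 7 had separate groups with FrE higher and none with FrE lower, and the wider fit called 5, all higher. Ptpn6, the phosphatase SHP-1 that dampens the receptor, measured 134.7, 288.4, 286.6, 134 and 91 CPM in FrD and 732.9, 570.9, 1296.3, 2726.8 and 1860.4 in FrE. The groups were separate, and Ptpn6 rose in the wider fit by 2.8 ± 0.46 (adjusted p = 0.00173).

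Of 18 tested NF-kB factors and targets, 16 lay above 0, the median was 1.17, and 4 had separate groups, all with FrE higher. The wider fit called 3, all higher. Nfkbid, a nuclear inhibitor of the NF-kB family, measured 13.3, 24.6, 3.9, 29.7 and 33.2 CPM in FrD and 122.3, 55.2, 135.7, 611.8 and 350 in FrE. It rose in the wider fit by 3.38 ± 0.67 (adjusted p = 0.00705).

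Among genes of light chain recombination, 3 fell in the wider fit, Rag1, Rag2 and Xrcc6. Rag1 (chromosome 2, 101638282 to 101649501, minus strand) measured 222.2, 352.6, 228.3, 205 and 287.3 CPM in FrD. In FrE it measured 0, 7.7, 13.3, 4.6 and 0.9 CPM. All FrE values were below the lowest FrD value, with a paired log2 change of -6.6 ± 1.09 and an adjusted p of 0.0577. In the wider fit Rag1 fell by 6.03 (SE 0.87, adjusted p = 0.000636).

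Rag2, its neighbour on the opposite strand, measured 311, 304.2, 10.2, 338.8 and 332.8 CPM in FrD and 0.2, 9, 3.5, 10 and 2.8 in FrE. FrD of mouse 3, the library with the high granulocyte sum, was the one near the FrE values, and the groups still did not overlap. Rag2 fell by 5.85 in the wider fit (SE 0.79, adjusted p = 0.000359). Xrcc6, which encodes the Ku70 protein of end joining, measured 642, 727.3, 592.9, 709.4 and 1198.9 CPM in FrD and 66.9, 145.5, 150.5, 133.2 and 225.5 in FrE. It had a paired adjusted p of 0.0508 and fell by 2.47 in the wider fit (SE 0.3, adjusted p = 0.000246). Over the list of 14 recombinase and end-joining genes the median was -0.28 (0.06 under spike-in scaling), with 10 below 0, and 4 had separate groups, all with FrE lower. The wider fit called the 3 genes described here.

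**Figure D3:**
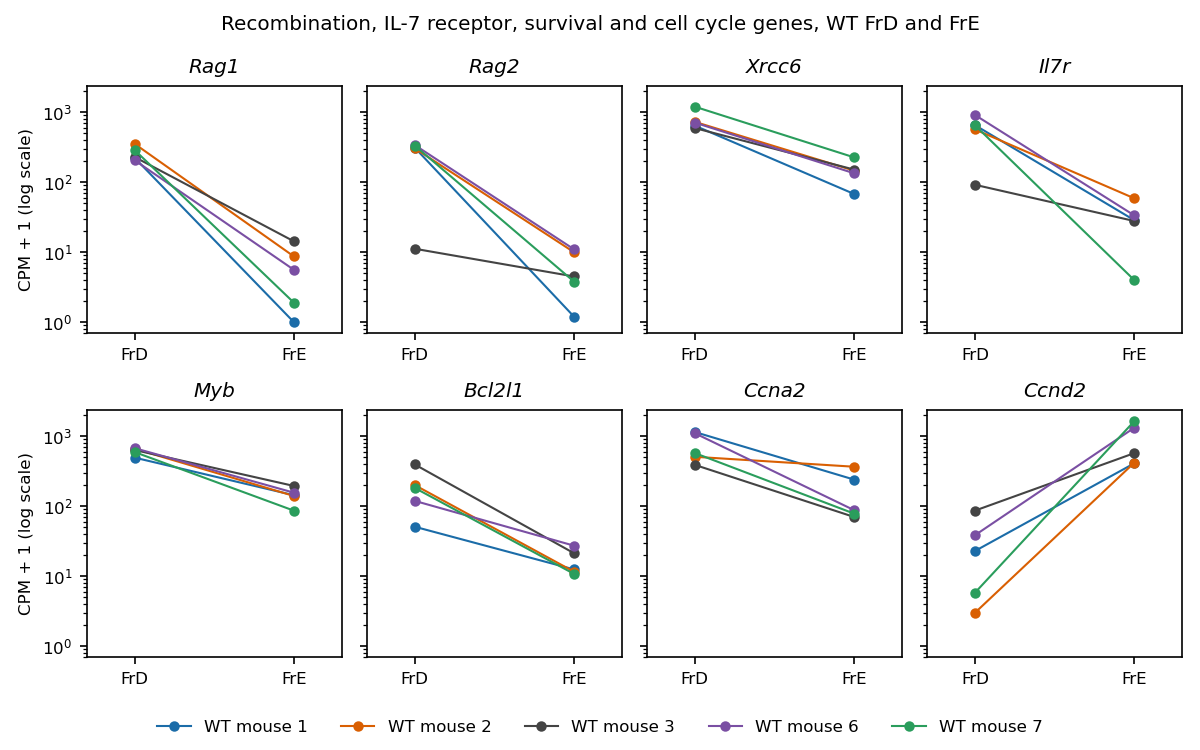
CPM + 1 (log axis) of 8 genes of recombination, interleukin 7 signalling, survival and the cell cycle in FrD and FrE of each of the 5 WT mice, with a line joining the 2 libraries of a mouse. FrE lies below FrD in every mouse in 7 panels and above it in every mouse for Ccnd2.

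Il7r, the alpha chain of the interleukin 7 receptor, measured 652.9, 567, 90.9, 912.4 and 650.3 CPM in FrD and 27.7, 57.9, 26.9, 32.6 and 3 in FrE. The groups were separate, the paired adjusted p was 0.0759, and Il7r fell by 4.27 in the wider fit (SE 0.56, adjusted p = 0.000359). It was the only called gene of 10 tested in the interleukin 7 receptor and STAT5 list, where 6 lay below 0 and the median was -0.43. Vpreb3, a pre-BCR-associated protein, measured 3896.3 to 6442.1 CPM in FrD and 1888.6 to 3419 in FrE. It fell by 1.01 in the wider fit (SE 0.24, adjusted p = 0.0229). Of 5 tested genes in its list, surrogate light chain and signalling chains, 2 lay above 0 and 3 below. The list median was -1.04 and changed sign in 4 of 14 alternative fits. Vpreb1 and Igll1, the surrogate light chain genes, overlapped between the groups and were called in neither fit. They measured 33.3 to 179.7 and 6.3 to 272.3 CPM in FrD, and 0.7 to 257.5 and 1.1 to 809.8 in FrE.

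Transcription factors of early B cells split in direction: of 29 tested, 14 lay above 0 and 15 below, with a median of -0.01 (0.35 under spike-in scaling). In the wider fit 3 rose and 6 fell. Myb, needed for pro-B and pre-B cells, measured 493.7, 662.2, 635.1, 674.2 and 593 CPM in FrD and 142.6, 139.2, 193.8, 155.1 and 85.4 in FrE. It fell by 2.18 there (SE 0.23, adjusted p = 6.17e-05), while its paired adjusted p was 0.0921. Tcf12, the E protein HEB, measured 406.2, 405.6, 179.8, 363.8 and 563.5 CPM in FrD and 90, 89.3, 49, 59.9 and 192.9 in FrE. The groups touched only through FrE of mouse 7 and FrD of mouse 3, and Tcf12 fell by 2.07 in the wider fit (SE 0.31, adjusted p = 0.000983).

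Ebf1, a factor that specifies the B lineage, fell by 1.36 in the wider fit (SE 0.29, adjusted p = 0.0135), and Irf4, which acts in light chain recombination, fell by 1.55 (SE 0.32, adjusted p = 0.00913). Sox4, a factor of early lymphocytes, fell by 2.44 (SE 0.52, adjusted p = 0.0131) with overlapping groups. Those that rose were Mef2c, Ikzf3 and Irf8. Mef2c, a factor of B cell survival and proliferation, measured 80.9, 96.3, 47.6, 78.1 and 67.2 CPM in FrD and 349.5, 209.2, 358.2, 379.6 and 672.2 in FrE, and rose by 2.34 ± 0.31 (adjusted p = 0.000359). Ikzf3, the factor Aiolos, rose by 1.91 ± 0.43 (adjusted p = 0.0186), and Irf8 by 2.18 ± 0.48 (adjusted p = 0.0169).

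Mitotic genes were lower in FrE as a group. All 25 tested G2/M genes lay below 0, with a median log2 change of -2.44 against 0.004 for all genes. None passed the paired test, 10 had separate groups, and the wider fit called 11, all lower. Ccna2, the cyclin of S and G2 phase, measured 1147.6, 507.5, 388.7, 1102.8 and 573.8 CPM in FrD and 239.1, 365.7, 69.2, 86.8 and 77.4 in FrE. It fell by 2.3 in the wider fit (SE 0.43, adjusted p = 0.00515). Cenpa, the histone of centromeres, measured 889.1, 656.2, 459.8, 713 and 956.8 CPM in FrD and 328.9, 308.1, 163.4, 94.6 and 54.2 in FrE, and fell by 2.09 there (SE 0.38, adjusted p = 0.00425). In libraries of pooled cells, fewer dividing cells and less RNA per dividing cell cannot be told apart. The count of G2/M genes called was 4 without the low-complexity libraries and no block.

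The G1/S and DNA replication list had 26 of 30 genes below 0 and a median of -1.4. The wider fit called 3 lower and 1 higher. Rrm2, the ribonucleotide reductase subunit of S phase, measured 1641, 1161.7, 211.1, 1813.3 and 1391.1 CPM in FrD and 248.3, 629.4, 129.2, 118.9 and 28.1 in FrE. Its groups overlapped through FrD of mouse 3, and it fell by 2.66 in the wider fit (SE 0.56, adjusted p = 0.0112). The gene called higher was Ccnd2, a D-type cyclin that BCR signals are known to induce. It measured 21.9, 2, 85.5, 37.5 and 4.8 CPM in FrD and 408.9, 416.7, 571.9, 1320.1 and 1636.8 in FrE. Every FrE library lay above every FrD library, and Ccnd2 rose in the wider fit by 5.15 ± 0.82 (adjusted p = 0.00141), with a paired adjusted p of 0.0921.

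Genes of the BCL2 family, which holds both survival and death genes, were called in both directions. Of 13 tested, 9 lay above 0 and the median was 1.14, but 0.63 without mouse 7, 0.6 without the block and 0.74 in the wider fit. The wider fit called 2 higher, Bcl2 and Bid, and 1 lower, Bcl2l1. Bcl2l1, which encodes BCL-XL, measured 49.9, 199.5, 394.2, 118.2 and 181.6 CPM in FrD and 11.5, 10.6, 20.3, 26.3 and 9.8 in FrE, and fell by 3.69 in the wider fit (SE 0.53, adjusted p = 0.000636). Bcl2 measured 1.1, 0.4, 1.7, 14.1 and 0 CPM in FrD and 68.5, 7.1, 36.4, 33.4 and 139.7 in FrE. It overlapped only through FrD of mouse 6 and FrE of mouse 2, and rose in the wider fit by 4.69 ± 1.18 (adjusted p = 0.0365). Bid, a member that promotes cell death, measured 36.4, 48.8, 3.3, 30.8 and 35.4 CPM in FrD. In FrE it measured 86.4, 100.1, 134.5, 125.6 and 71.3 CPM. Its groups were separate, and Bid rose in the wider fit by 1.81 ± 0.48 (edgeR adjusted p = 0.0479).

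Of the 17 homing and retention genes tested, 12 lay above 0, the median was 0.92, and 1 was called in the wider fit. That gene was Cxcr4, the receptor that holds cells in the marrow. It measured 48.6, 101.1, 61.8, 81.7 and 96.3 CPM in FrD and 17, 18.8, 24, 20.5 and 11.2 in FrE, and fell by 2.13 (SE 0.41, adjusted p = 0.00632). Cxcr5, the receptor for follicles, measured 6.4, 25.5, 9.1, 2 and 0.1 CPM in FrD and 155.2, 182.6, 146.3, 267.8 and 50.7 in FrE. Its groups were separate, but it was called in neither fit (adjusted p = 0.125 paired and 0.0501 in the wider fit).

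Genes of the unfolded protein response, which expands the folding capacity of the endoplasmic reticulum, lay above 0 for 22 of 24 tested, with a median of 1.11. The wider fit called 5, all higher, and 4 had separate groups. Calr, a chaperone of glycoproteins, measured 194.4, 187, 258.2, 169.5 and 184.7 CPM in FrD and 379.7, 460.1, 484.7, 783 and 549.3 in FrE. It rose in the wider fit by 1.34 ± 0.27 (adjusted p = 0.00802). Sel1l, a part of the machinery that removes misfolded proteins, rose there by 1.86 ± 0.38 (adjusted p = 0.00924). Hspa5, the chaperone BiP, rose there by 1.19 ± 0.31 (adjusted p = 0.0413), and Xbp1, a transcription factor of this response, by 1.24 ± 0.33 (adjusted p = 0.0479). Both overlapped between the groups. Xbp1 measured 266.5, 397.6, 218, 262 and 227.3 CPM in FrD and 578.4, 1396.4, 651.4, 1181.1 and 187.6 in FrE. In mouse 7 it was thus lower in FrE. Plasma cell markers, given above, were also high in FrE of mice 2, 3 and 6, and their part in this group was not tested.

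The 8 tested GIMAP genes, small GTPases of lymphocyte survival, all lay above 0 with a median of 2.1, and the wider fit called 1. This was Gimap1, with 98.9, 69.2, 40.8, 92.5 and 82.7 CPM in FrD and 271.5, 203.9, 240, 427 and 520.7 in FrE (2.07 ± 0.29, adjusted p = 0.000526). Interferon response genes lay above 0 for 20 of 22 with a median of 1.23, and none was called in either fit. That median was 0.7 in the wider fit, and the list medians of single mice had an SD of 1.71. Only 2 of the 22 were higher in FrE in all 5 mice. Zinc transporters and metallothioneins had 10 of 15 above 0, a median of 0.24 (-0.25 without mouse 3) and no call in either fit. Cytosolic ribosomal protein genes had a median of -0.04 over 82 tested (0.3 under spike-in scaling), and respiratory chain genes a median of -0.32 over 87 (0.05 under spike-in scaling), again with no call in either fit.

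**Figure D4:**
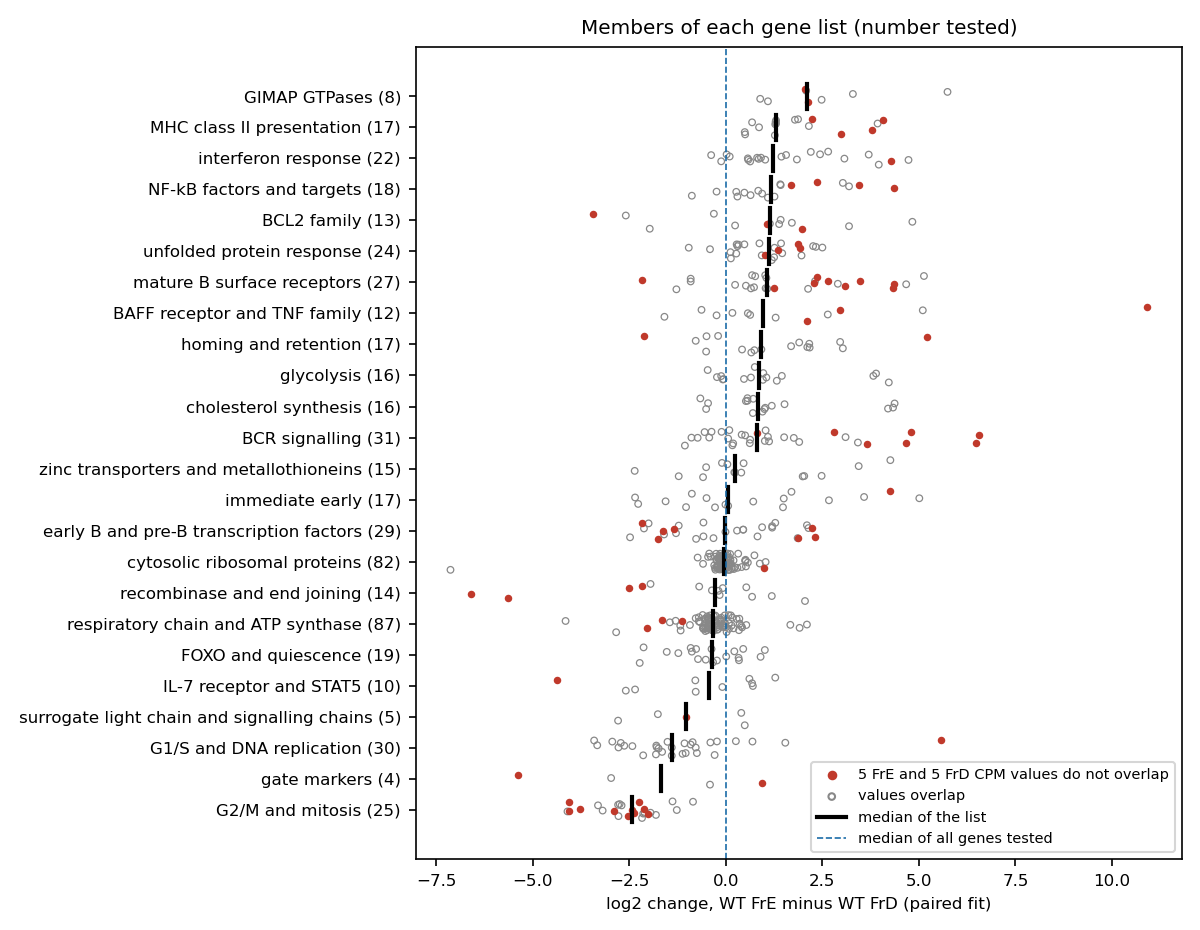
Log2 change from FrD to FrE in the paired fit for the tested members of each gene list, ordered by the list median (black bar). Red points are genes whose 5 FrE and 5 FrD values do not overlap, open points overlap, and the dashed line is the median of all genes, 0.004. G2/M genes lie wholly on the left, with a median of -2.44, and GIMAP and MHC class II genes wholly on the right.

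The same genes were then followed over the 4 WT fractions, where the step from FrC to FrD shares the FrD libraries with the step described here. Rag1 had medians of 36.7, 25.7, 228.3 and 4.6 CPM in FrB, FrC, FrD and FrE. It rose from FrC to FrD by 3.74 ± 0.4 (paired fit on those fractions, adjusted p = 0.00651), a comparison in which 169 of 10246 genes were called (1.65%), 99 higher in FrD (0.966%) and 70 lower (0.683%). Vpreb3 had medians of 1784.8, 2111, 4597.3 and 2044.9 CPM and rose from FrC to FrD by 1.57 ± 0.21 (adjusted p = 0.0104). Ccnd2 ran opposite, with medians of 303.7, 522.4, 21.9 and 571.9 CPM, and fell from FrC to FrD by 4.9 (SE 0.81, adjusted p = 0.0269). FrD thus held the highest median of Rag1 and Vpreb3 and the lowest of Ccnd2. Unlike Vpreb3, the genes Vpreb1 and Igll1 fell from FrC to FrD, by 3.87 (SE 0.35, adjusted p = 0.00365) and 4.83 (SE 0.8, adjusted p = 0.0269).

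Ms4a1 had medians of 662.3, 243.8, 166.4 and 5696.4 CPM, and its change from FrC to FrD did not pass (0.64 ± 0.47, adjusted p = 0.565). Cd74 had medians of 5222.8, 1019.1, 1438.2 and 14311.4 CPM, and Cd83 of 71.5, 6.2, 25.1 and 338 CPM. These 3 were highest in FrE and higher in FrB than in FrC. The FrB gate, as labelled, names no IgM or IgD, and its libraries held Jchain at a median of 26279.9 CPM.

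**Figure D5:**
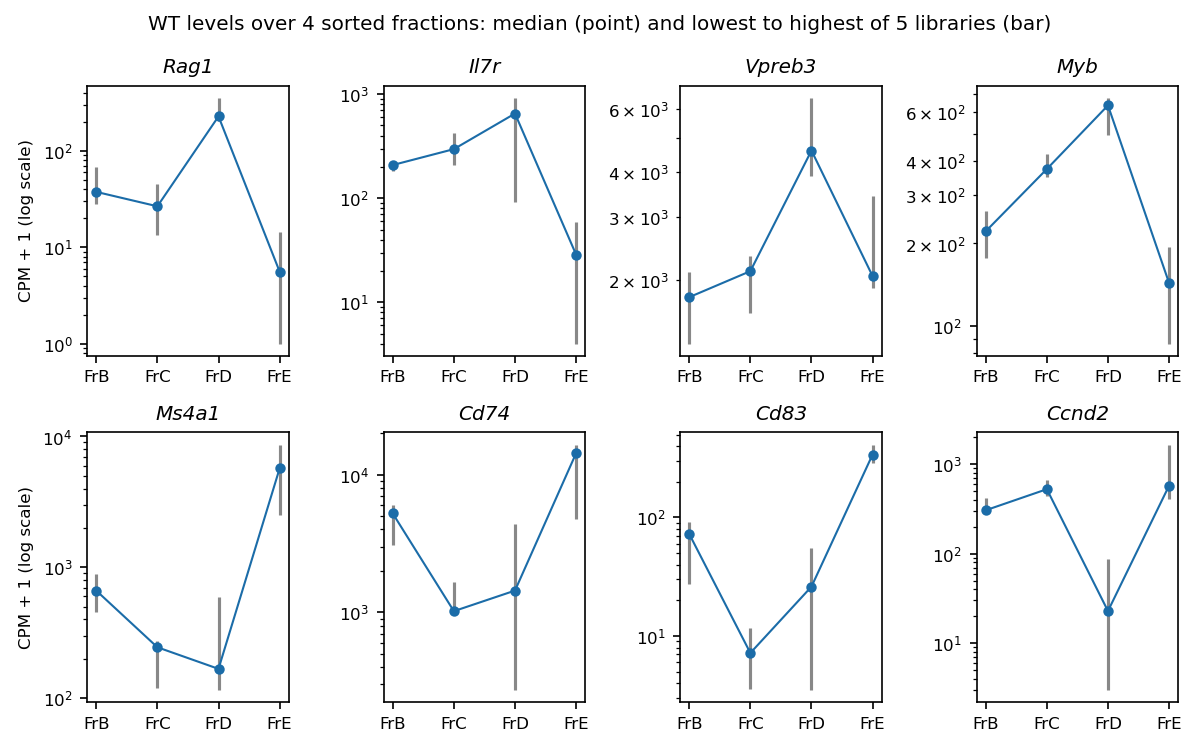
Median (point) and range (bar) of CPM + 1 over 5 WT libraries in each of the fractions FrB, FrC, FrD and FrE, on a log axis, for 8 genes. Rag1, Il7r, Vpreb3 and Myb have their highest median in FrD, and Ms4a1, Cd74, Cd83 and Ccnd2 in FrE.

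The step was also compared with the same step in the P198A chimeras, as a difference of differences over 20 libraries with the mouse as a block. No gene of 10986 was called (0%, smallest adjusted p = 0.22, edgeR quasi-likelihood test), and 475 had an unadjusted p under 0.05. Ms4a1 had the lowest adjusted p. It measured 6.1 ± 8.4 CPM (SD, n = 5) in mutant FrD and 2240.4 ± 628.1 in mutant FrE, against 320.8 ± 236.6 and 5670.2 ± 2227.3 in WT, so both mutant means lay below the WT means. The step was 4.33 in WT and 9.48 in the mutant on the log2 scale. It was the 1 gene called when mutant mouse 8 was left out (edgeR adjusted p = 0.021), and had an adjusted p of 0.169 without the low-complexity libraries and no block. The 3 low-complexity libraries among the 20 include FrE of mutant mouse 9, which held only 42111 endogenous counts. Of its 7365 detected genes, 87.9% had 1 to 9 counts. The other mutant FrE libraries held 18920916 to 20678002 counts. With mutant mouse 9 left out and the block kept, no gene was called (smallest edgeR adjusted p = 0.122). Without the 3 low-complexity libraries and with no block, 48 of 11157 genes were called. They included Il7r, whose mutant step was 3.38 ± 0.4 less negative than the WT step (adjusted p = 0.000113), Rag2 (5.48 ± 0.87, adjusted p = 0.00562), Myb (1.7 ± 0.29, adjusted p = 0.00656), Tcf12, Cd93 and Xrcc6. With all 20 libraries and the block, the adjusted p of these 6 genes ran from 0.521 to 0.67.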

How the data were processed

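Smart-seq2 libraries of 100 sorted cells with ERCC spike-ins were deposited as raw counts per gene. The authors' counts came from HISAT2 2.1.0 and featureCounts 1.4.6 on mm10, per the submitters' processing notes, which also name DESeq2. Neither annotation release nor strand setting is given there, so reads of overlapping or antisense genes may be mixed.

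Of 21958 genes, 21728 matched a symbol. Genes were kept by filterByExpr (minimum count 10, total 15), scaled by TMM and tested with edgeR 4.0.16 (robust quasi-likelihood, R 4.3.3) with fraction and mouse as terms, on the 10 WT FrD and FrE libraries. CPM use endogenous totals without TMM. limma 3.58.1 and DESeq2 1.42.0 served as alternatives. FrD and FrE libraries of a number come from the same mouse, which sets the block; the deviations of same-mouse libraries correlated at a median r of 0.01 (-0.17 to 0.19), against 0.02 for other pairs.

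Genes were named by low p in the test or within a list, besides the gate markers and Slc39a7. H2-Oa, H2-Aa, Cd40, Cd22, Cd93, Irf8, Ikzf3, Irf4, Ebf1, Cfp and Thbd were named after their values were seen. Members and lists were chosen with earlier results of these data known.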

Additional observations from a re-analysis of the deposited data

Results flagged for a closer look

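In groups of 5, a library was singled out where its gap to the nearest other exceeded Dixon's 95% critical value. Of 122 groups of values tested, 21 met it. Chance alone gives about 1 in 20 where values are normally distributed. Gene values entered as CPM without a log, and their distribution was not tested, so the chance rate here is not known. Of these 21, 12 lay in the 2 low-complexity libraries. Among the 12 is the share of genes at 1 to 9 counts in FrD of mouse 3, the measure that defined such libraries.

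FrD of mouse 3 stood apart with a total of 6372181 counts and with 26.7% of its detected genes at 1 to 9 counts. In the same library Rag2 was low at 10.2 CPM, and Sox4 (546.4), Calr (258.2), Spn (101.2), Slc39a7 (203.7) and Ppbp (0.9) were high. FrE of mouse 7 stood apart with Cd74 low at 4747.9 CPM and with Lta (140.7), Tcf12 (192.9) and Sox4 (139.7) high.

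Among the other FrD libraries, mouse 2 was high for Hspa5 (485.9 CPM), Xbp1 (397.6) and Enpep (75.2), mouse 6 for Ikzf3 (108.1) and Bcl2 (14.1), and mouse 7 for Xrcc6 (1198.9). Among the other FrE libraries, mouse 3 was high for Ppbp (2043.6 CPM) and Spn (27.9), and mouse 1 for Fcmr (2838.7).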

How the results depend on the processing

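The count of genes called, 8 in the paired test, was higher under every other scaling, filter and tool run. It was 14 with DESeq2 size factors (12 higher, 2 lower), 18 with spike-in scaling (15 and 3), 74 with no low-count filter (41 and 33 of 15616), 359 with all 20 WT libraries, 729 with DESeq2's Wald test (397 and 332) and 383 with voom quality weights (186 and 197). Without the replicate block it was 66 (34 and 32). It was 277 without the 2 low-complexity libraries and no block, and 62 (27 and 35) with the block but without mice 3 and 7. Leaving out 1 mouse gave 1 to 6. Over the gene lists, 5 of 550 members were called, against 8 of all 9707 genes tested (0.0824%). With all 20 WT libraries the share over all genes was 3.14%. The lists were chosen with earlier results of these data known, so a higher share in them is not a result. In the same order as above, the counts over the lists were 9, 11, 28, 68, 105 and 85. They were then 25 without the block, 62 and 17, and 0 to 2 with 1 mouse left out. The causes were not tested.

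Of the 8 genes, 7 were called without the block, and Ppbp was not. The difference between the mutant and WT steps had 0 genes called, 0 without the block (smallest adjusted p = 0.0526, edgeR), 48 without the low-complexity libraries and no block, and 0 to 1 with 1 mouse left out. Without mouse 7, the log2 spike-in ratio difference was -0.02 (-0.02 to 0.67 over mice left out) and the difference in total counts was 662331 (-6966072 to 662331); that in genes detected ran from 47 to 178. Cd24a changed from -0.41 to 0 under spike-in scaling. Slc39a7 changed from 0.04 to -0.41, -1 and -1.2 without mouse 2, 6 or 7 (-1.2 to 1.16 over mice left out) and to -0.07 without mice 3 and 7. Medians of the MHC class II, surface receptor, BCR, unfolded protein, GIMAP, G1/S and G2/M lists kept their sign in all 14 alternatives. That of the transcription factors changed sign in 9. Depth limits values near 0, such as those of Lta, Rag1 and Il4i1.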

Other observations

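Outside the lists, Cfp and Thbd were named after their values were seen. Cfp, which encodes properdin of the alternative complement pathway, measured 6.9, 9.4, 3.5, 12.2 and 0.3 CPM in FrD and 341, 164.6, 329.8, 502.7 and 597.9 in FrE. The groups were far apart, and Cfp rose in the fit on 20 WT libraries by 6.05 ± 0.79 (edgeR, adjusted p = 0.000359), with a paired adjusted p of 0.0508. Thbd, thrombomodulin, measured 246.2, 257.1, 209.8, 218.7 and 184.5 CPM in FrD and 45.4, 32.6, 44.6, 29.1 and 16.7 in FrE. It fell by 2.83 in the same fit (SE 0.31, adjusted p = 0.00011).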
